A study of Rattus norvegicus with 6 samples.

Results

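The genes described here encode the interleukin-6 (IL-6) family cytokines, their receptors, the transcription factor Stat3 and its feedback inhibitor Socs3, in primary rat chondrocytes treated with retinoic acid (RA). Members were the genes whose symbol in the deposited files equals 1 of 10 names (Il6, Lif, Il11, Clcf1, Il6st, Lifr, Osmr, Il11ra1, Stat3 and Socs3), and all 10 were found among 18923 genes. The question was whether RA changed the messenger RNA of this signalling axis.

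Poly(A) RNA was sequenced from 3 CON and 3 RA samples. All cells were wild-type (WT) chondrocytes from 24-hour-old female Sprague-Dawley rats, released from cartilage with collagenase and used at passage 1 or 2, and both groups grew in high-glucose DMEM with fetal bovine serum and penicillin-streptomycin. CON cells received this medium alone for 24 h, and RA cells received it with 1 µM all-trans RA for 24 h. The labels name no vehicle for the CON medium, and the 3 samples of a group are described as biologically independent, without saying whether they came from separate animals, so the p-values measure the spread between these samples.

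IL-6 family cytokines act through receptor complexes that share the signalling subunit gp130, the product of Il6st, paired with IL-6 receptor, IL-11 receptor, LIF receptor or oncostatin M receptor. The complex activates Janus kinases, which phosphorylate STAT3, and STAT3 then enters the nucleus and induces its targets. Socs3 is such a target, and its protein binds gp130 and the kinases and shuts the signal off, so its messenger RNA is widely used as a readout of recent STAT3 activity, and in cartilage the family is known for its part in joint inflammation and matrix loss.

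Total counts ran from 29370025 to 38007486 per sample, and 13438 genes had enough counts to be tested. A gene passed the test at an adjusted p under 0.05 (edgeR quasi-likelihood test, Benjamini-Hochberg over all tested genes). CON sample 1 stood apart, with 397 tested genes more than 2-fold from the mean of the other CON samples, against 208 to 237 genes for each of the other samples within its own group. All 8 chondrocyte markers were present and all 8 fell with RA. Their summed level went from between 29248 and 39088 CPM in CON to between 17889 and 19508 CPM in RA. Here CPM are counts scaled to the sample's total multiplied by its TMM normalization factor. The call of Comp was lost without RA sample 1 (adjusted p = 0.0506, edgeR). Of the retinoid response genes, 4 of 6 rose, against 5.31% of all tested genes. Of these 4, Cyp26a1, Cyp26b1 and Dhrs3 passed with each sample left out, and Rarb (adjusted p = 0.0493, edgeR) in 1 of 6 such fits, with adjusted p-values up to 0.197. Of 8 macrophage markers, 4 had enough counts to be tested, 0 passed by edgeR, DESeq2 or limma and 1 had an unadjusted p under 0.05. The 8 summed to 22.8 to 25.8 CPM in CON and 27.4 to 29.7 CPM in RA. Most of this sum was Cd14, at 20.2 to 23.4 CPM in CON and 24.4 to 26.8 CPM in RA. The defining leukocyte gene Ptprc had between 0 and 5 counts per sample. Endothelial markers summed to at most 1.14 CPM, and skeletal muscle markers to 10.1 to 12.8 CPM in CON and 14.9 to 16.5 CPM in RA. Fibroblast markers summed to 19597 to 26672 CPM in CON and 25418 to 27006 CPM in RA. Most of the muscle sum was Des, and most of the fibroblast sum was Col1a1. Of the muscle markers Myod1 rose, and of the 6 fibroblast markers Pdgfra rose and Dcn fell (edgeR), and with each sample left out Myod1 passed in 3 of 6 fits, Pdgfra in 6 and Dcn in 2. The part of these shifts in the values below was not tested, and in bulk samples fewer cells of a type and less RNA per cell cannot be told apart.

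Of the 10 members, 9 were tested and Il6 was below the filter on low counts. None of the 9 passed the test by edgeR, where 9.82% of all tested genes passed (5.31% higher and 4.5% lower in RA), and 0 passed by DESeq2 or by limma on log2 FPKM, while 1 (Lif) passed by edgeR without CON sample 1, a fit in which 2242 genes passed in place of 1319. At an unadjusted p under 0.05 there were 4 of 9 members (Lif, Clcf1, Il6st and Lifr), against 24% of all tested genes. The same 4 genes were those whose CON and RA samples did not overlap, against 31.9% of all tested genes. Lif and Clcf1 lay wholly higher in RA, against 16.9% of all tested genes, and Il6st and Lifr wholly lower, against 15.1%. The median log2 fold change of the 9 members was 0.03 (-0.05 without CON sample 1), against -0.0057 over all tested genes. With Il6 included in the fits where it had enough counts, the median ran from -0.01 to 0.21 as each sample was left out. The median absolute log2 fold change of the 9 members was 0.17, against 0.155.

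**Figure D1:**
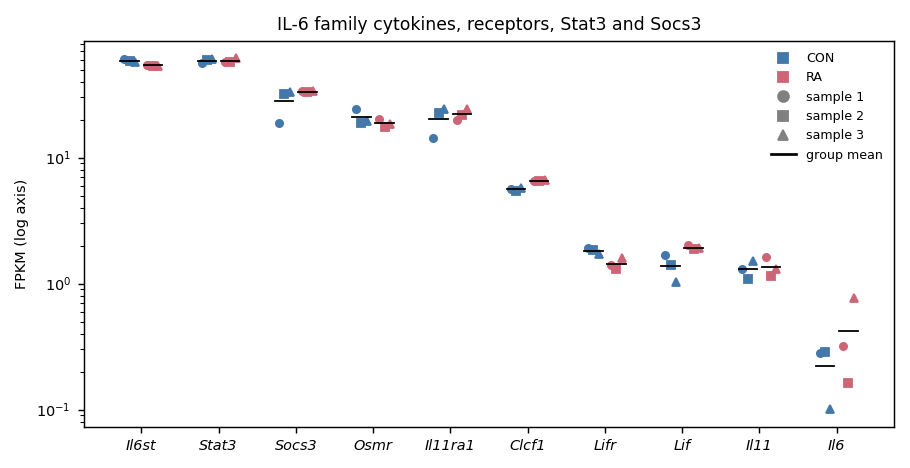
Level of each member in FPKM (log axis), a read count scaled by gene length and by the sample's total, in the 3 CON (blue) and 3 RA (red) samples; the marker shape gives the sample number and the line the group mean. Il6st and Stat3 lie highest, between 53.6 and 61.4 FPKM, and Il6 lies lowest, at most 0.773 FPKM.

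Levels can be compared between genes only per length, and for this the FPKM is used. In CON the order of the mean levels was Il6st, Stat3, Socs3, Osmr, Il11ra1, Clcf1, Lifr, Lif, Il11 and Il6. Neighbours whose samples overlapped were Il6st with Stat3, Socs3 with Osmr, Osmr with Il11ra1 and Lif with Il11. The signal transducers Il6st and Stat3 thus had the highest levels. Socs3 and the private receptor subunits of oncostatin M and IL-11 had a middle level, and the ligands and Lifr the lowest. In RA the order was Stat3, Il6st, Socs3, Il11ra1, Osmr, Clcf1, Lif, Lifr, Il11 and Il6. The pairs Il6st and Stat3, Osmr and Il11ra1, and Lifr and Lif had changed places, none of these genes passing the test, and the neighbours Il11ra1 with Osmr and Lifr with Il11 overlapped.

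Il6 (ENSRNOG00000010278) encodes the founding cytokine of the family. Its counts were 9, 9 and 4 in CON and 10, 5 and 25 in RA, or 0.28, 0.285 and 0.101 FPKM against 0.322, 0.163 and 0.773 FPKM. RA sample 3 was highest and RA sample 2 lay among the CON samples, so the groups overlapped. The mean level was 0.222 ± 0.105 FPKM in CON and 0.419 ± 0.316 FPKM in RA (SD, n = 3), and an exact two-sided permutation test on log2(CPM + 0.1) gave p = 0.4, where 3 against 3 samples allow no p below 0.1. Without the filter on low counts edgeR gave a log2 fold change of 0.93 (95% interval -0.47 to 2.33, adjusted p = 0.486), and DESeq2 gave an adjusted p of 0.561. Without RA sample 3 the log2 ratio of the mean FPKM went from 0.92 to 0.13, so that sample carried most of the difference in means. The interval spans both signs, so no difference in Il6 was detected at this depth and its direction was not resolved.

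The proximal promoters of Il6 and Il11 are shown because only these members had a reference window whose start site lies at the annotated gene edge. Both ligands are known as inducible genes. Each line gives 250 bases 5′ to 3′ up to the annotated start in RefSeq's rat assembly GRCr8, and the capitals mark the motif letters found by a search of both strands. Il6 lies on the minus strand (chr4:5894576-5894825) and Il11 on the plus strand (chr1:78098372-78098621).
Il6: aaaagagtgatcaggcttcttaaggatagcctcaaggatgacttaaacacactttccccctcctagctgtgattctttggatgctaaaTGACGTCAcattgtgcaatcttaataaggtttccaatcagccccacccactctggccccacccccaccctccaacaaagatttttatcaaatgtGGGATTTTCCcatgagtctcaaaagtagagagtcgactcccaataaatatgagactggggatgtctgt
Il11: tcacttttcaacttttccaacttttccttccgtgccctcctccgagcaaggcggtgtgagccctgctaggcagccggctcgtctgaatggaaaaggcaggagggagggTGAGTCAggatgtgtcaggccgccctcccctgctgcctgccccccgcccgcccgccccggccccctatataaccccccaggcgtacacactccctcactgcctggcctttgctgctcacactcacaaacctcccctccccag
In Il6 the cyclic AMP response element TGACGTCA lies 162 to 155 bases before the start, and the letters occur in 1.59% of 33469 promoter windows of this length. The 10-base NF-κB motif, the second run of capitals, lies 68 to 59 bases before the start of Il6 and occurs in 0.0627% of the windows. In Il11 the AP-1 motif TGAGTCA lies 142 to 136 bases before the start and occurs in 4.05% of the windows. The STAT motif TTCNNNGAA, found in 7.67% of the windows, had no match in either window. A match is a description of letters and not of binding.

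Lif (ENSRNOG00000007002) encodes leukemia inhibitory factor, which signals through LIF receptor and gp130. Its level was 1.68, 1.40 and 1.03 FPKM in CON and 2.01, 1.88 and 1.90 FPKM in RA. All 3 RA samples lay above all 3 CON samples, and the CON samples were the more scattered. The level averaged 1.37 ± 0.328 FPKM in CON and 1.93 ± 0.0707 FPKM in RA (SD, n = 3). The log2 fold change was 0.49 (SE 0.194, 95% interval 0.05 to 0.93), a difference of 1.40-fold, with an unadjusted p of 0.0346 and an adjusted p of 0.172 (edgeR). CON sample 1 was the highest of its group, and without it Lif passed: the log2 fold change was 0.66 and the adjusted p 0.0299, within a range of 0.0299 to 0.342 over the alternatives. Without CON sample 3, the lowest of its group, the log2 fold change was 0.32 (adjusted p = 0.267, edgeR).

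Clcf1 (ENSRNOG00000018752) encodes cardiotrophin-like cytokine factor 1, a ligand of the LIF receptor and gp130 complex. It had the highest level of the 4 ligands, 5.63, 5.45 and 5.72 FPKM in CON and 6.54, 6.50 and 6.60 FPKM in RA. The groups did not overlap and the spread within each was small. The mean went from 5.60 ± 0.14 FPKM to 6.55 ± 0.0491 FPKM (SD, n = 3), a log2 fold change of 0.21 (SE 0.0852, 95% interval 0.02 to 0.41). The adjusted p was 0.176 (edgeR), and it ran from 0.132 to 0.414 over the alternatives. Clcf1 overlaps Rad9a in the RefSeq annotation of GRCr8, while the build named for the counts is Rnor_6.0. Whether the gene models overlap there was not tested. Strand use in the counting is not given in the sources used here, so its counts are uncertain to that extent.

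Il11 (ENSRNOG00000017386) encodes interleukin-11, a ligand known from bone and connective tissue. Its level was 1.31, 1.08 and 1.52 FPKM in CON and 1.61, 1.15 and 1.30 FPKM in RA. The groups overlapped throughout. The log2 fold change was 0.03 (SE 0.218, 95% interval -0.47 to 0.53, adjusted p = 0.942, edgeR), and its sign turned when CON sample 2 (-0.09) or RA sample 1 (-0.10) was left out.

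**Figure D2:**
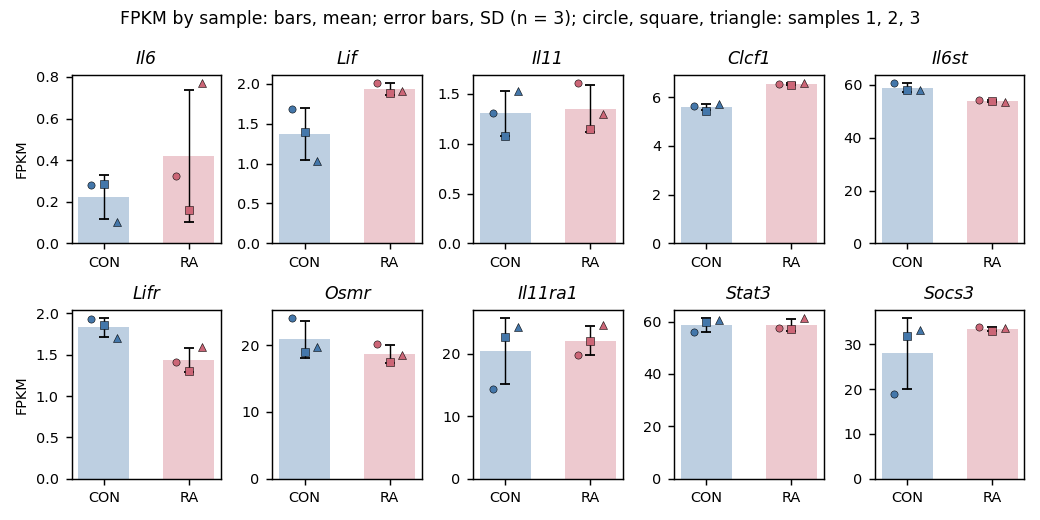
FPKM of each member on its own linear axis from 0, with bars for the mean, error bars for the SD (n = 3) and circle, square and triangle for samples 1, 2 and 3 of CON (blue) and RA (red). The groups do not overlap for Lif, Clcf1, Il6st and Lifr, and CON sample 1 lies below the other samples for Il11ra1 and Socs3.

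Il6st (ENSRNOG00000013963) encodes gp130, the subunit that all these ligands use. Its level was 60.8, 58.1 and 57.8 FPKM in CON and 54.4, 53.7 and 53.6 FPKM in RA. Every RA sample lay below every CON sample. The mean went from 58.9 ± 1.64 FPKM to 53.9 ± 0.436 FPKM (SD, n = 3), and the log2 difference was -0.14 (SE 0.0535, 95% interval -0.26 to -0.02, adjusted p = 0.153, edgeR), with adjusted p-values between 0.0983 and 0.391 over the alternatives. Il6st overlaps LOC134485838 in the RefSeq annotation of GRCr8, which is not the build of the counts.

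Lifr (ENSRNOG00000011696) encodes the LIF receptor, which pairs with gp130 and also serves the Clcf1 and cardiotrophin ligands. Its level was 1.93, 1.86 and 1.70 FPKM in CON and 1.41, 1.30 and 1.59 FPKM in RA. The groups did not overlap, with RA sample 3 closest to CON. The mean went from 1.83 ± 0.114 FPKM to 1.43 ± 0.145 FPKM (SD, n = 3). The log2 fold change of -0.36 was the lowest of the members (SE 0.119, 95% interval -0.64 to -0.09, adjusted p = 0.103, edgeR), a level in RA of 0.777 times that in CON (95% interval 0.643 to 0.938). The adjusted p ran from 0.104 to 0.315 over the alternatives, and the log2 fold change from -0.45 to -0.30 as each sample was left out.

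Osmr (ENSRNOG00000033192) encodes the oncostatin M receptor subunit. Its level was 24.1, 19.0 and 19.7 FPKM in CON and 20.1, 17.5 and 18.5 FPKM in RA. CON sample 1 was the highest, and the groups overlapped. The log2 fold change was -0.17 (SE 0.0996, 95% interval -0.40 to 0.06, adjusted p = 0.337, edgeR), and -0.06 without CON sample 1.

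Il11ra1 (ENSRNOG00000015068) encodes the IL-11 receptor subunit. Its level was 14.4, 22.6 and 24.3 FPKM in CON and 19.8, 22.0 and 24.5 FPKM in RA. The groups overlapped, and CON sample 1 stood at 60.9% of the mean of the other CON samples. The log2 fold change was 0.10 (SE 0.184, 95% interval -0.32 to 0.52, adjusted p = 0.786, edgeR), and without CON sample 1 it was -0.10. Il11ra1 overlaps Ccl27 in the RefSeq annotation of GRCr8, which leaves its counts uncertain in the same way as those of Clcf1.

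Lifr and Il6st were the members with the smallest p-values, and the tested genes most like each of them were sought by the root mean square difference of log2 CPM, centred on the CON mean, over the 6 samples. For Lifr these were Ngly1 (0.0392), LOC100912564 (0.0428) and Ndrg2 (0.0474). Ngly1 fell by 0.32 (adjusted p = 0.0422, edgeR) and Ndrg2 fell by 0.36 (adjusted p = 0.0171, edgeR) on the log2 scale, while LOC100912564 had an adjusted p of 0.104 (edgeR). For Il6st these were Hdlbp (0.013), Rpl5 (0.0143) and Erg28 (0.0149), with adjusted p-values of 0.0805, 0.0933 and 0.219 (edgeR).

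Stat3 (ENSRNOG00000019742) encodes the transcription factor that these receptors activate. Its level was 55.9, 59.8 and 60.5 FPKM in CON and 57.7, 57.1 and 61.4 FPKM in RA. The groups overlapped, and their means were 58.7 ± 2.52 FPKM and 58.8 ± 2.33 FPKM (SD, n = 3). The log2 fold change was -0.01 (SE 0.0627, 95% interval -0.16 to 0.13, adjusted p = 0.927, edgeR), which bounds the level in RA between 0.898 and 1.10 times that in CON. After Il6st this was the narrowest interval of the members. Phosphorylation of the protein was not measured.

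Socs3 (ENSRNOG00000002946) encodes the feedback inhibitor. Its level was 18.9, 31.9 and 33.2 FPKM in CON and 33.8, 32.9 and 33.7 FPKM in RA. CON sample 1 lay far below the other 5 samples, at 57.8% of the mean of the other CON samples, and RA sample 2 lay below CON sample 3, so the groups overlapped. The mean went from 28.0 ± 7.88 FPKM to 33.4 ± 0.467 FPKM (SD, n = 3), with a log2 fold change of 0.24 (SE 0.187, 95% interval -0.19 to 0.67, adjusted p = 0.48, edgeR). Without CON sample 1 the log2 fold change was 0.02 (adjusted p = 0.864), and the other 5 samples lay between 31.9 and 33.8 FPKM. Without CON sample 3 the log2 fold change was 0.39 (adjusted p = 0.215, edgeR).

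**Figure D3:**
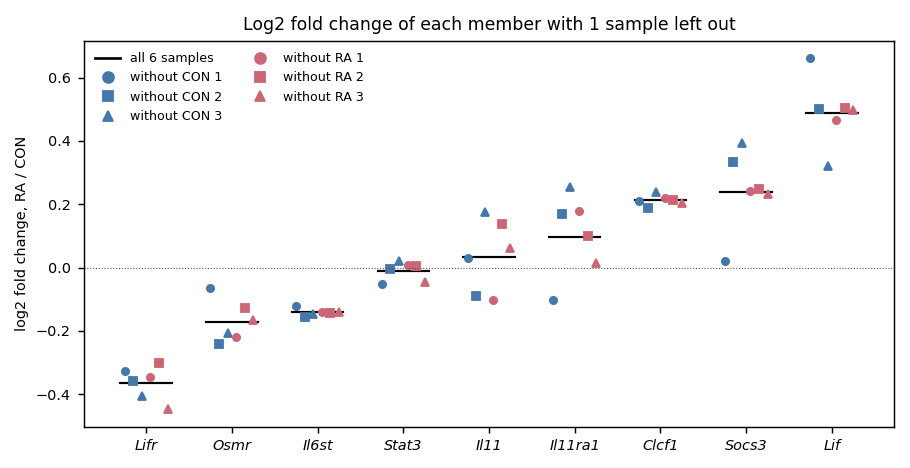
Log2 fold change (RA over CON, edgeR) of the 9 tested members with all 6 samples (line) and after removal of each sample (marker color for the group, shape for the sample number). Socs3 goes from 0.24 to 0.02 and Il11ra1 from 0.10 to -0.10 without CON sample 1, and Lif goes from 0.49 to 0.66. Without CON sample 3, Socs3 is at 0.39, Il11ra1 at 0.25 and Lif at 0.32.

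The rest of the gp130 pathway was read from lists of 28 genes, of which 26 were in the files and 22 were tested. Of these 22, 1 rose and 1 fell, against 5.31% and 4.5% of all tested genes, and 12 had a log2 fold change above 0. Their median log2 fold change was 0.02, and it ran from -0.05 to 0.05 as each sample was left out. Ctf1, at -0.59, lay just beyond a log2 fold change of 0.58, against 4.96% of all tested genes that both passed and moved this far, 2.67% upward and 2.29% downward. It came to lie inside that threshold with total-count scaling (-0.576), by limma (-0.57 and -0.49) and in 3 of 6 fits with a sample left out, CON sample 1 (-0.556), CON sample 2 (-0.576) or RA sample 1 (-0.574). As each sample was left out, between 1 and 3 of the 22 passed, the lowest count coming when the sample removed was number 2 of CON or number 1 or 3 of RA.

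Among the other ligands, 3 genes were tested, and 1 passed, lower in RA, where 4.5% of all tested genes passed lower. Ebi3, a subunit of interleukin-27, had few counts, 4, 11 and 7 in CON and 13, 15 and 12 in RA. Its groups did not overlap, and its log2 fold change of 0.97, the highest of the 22 pathway genes, did not pass (SE 0.448, 95% interval -0.06 to 1.99, adjusted p = 0.236, edgeR). Ctf1 (ENSRNOG00000018962) encodes cardiotrophin-1, a ligand of LIF receptor and gp130. Its level was 7.64, 7.47 and 6.76 FPKM in CON and 4.84, 4.92 and 4.90 FPKM in RA, with no overlap. Ctf1 fell by 0.59 on the log2 scale (SE 0.106, adjusted p = 0.00977, edgeR). The call was lost without CON sample 2 (adjusted p = 0.0509), RA sample 1 (adjusted p = 0.0547) or RA sample 3 (adjusted p = 0.053), while the size ran only from -0.63 to -0.56. Neither Il6r nor Cntfr, the receptors of this list that were tested, passed: the log2 fold change was -0.17 (adjusted p = 0.277, edgeR) for Il6r, the IL-6 receptor subunit, and -0.15 (adjusted p = 0.689, edgeR) for Cntfr.

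Of the 5 kinases and other STAT genes, 0 passed by edgeR, DESeq2 or limma, against 9.82% of all tested genes by edgeR, and 3 had an unadjusted p under 0.05, against 24%. Stat5b, a STAT factor of growth hormone signalling, had an adjusted p of 0.0934 by edgeR at a log2 fold change of 0.31. It passed without CON sample 1 (adjusted p = 0.0377), and also with the replicate number as a block. The kinase genes had log2 fold changes of 0.04 (Jak1, adjusted p = 0.787), -0.21 (Jak2, adjusted p = 0.106) and 0.25 (Tyk2, adjusted p = 0.108) by edgeR.

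Of the 12 other negative regulators, 1 passed, higher in RA, a share near the 9.82% of all tested genes. Socs5 (ENSRNOG00000028504), a relative of Socs3, had a level of 19.8, 19.5 and 19.2 FPKM in CON and 28.0, 26.2 and 26.3 FPKM in RA. Every RA sample lay above every CON sample. Socs5 rose by a log2 fold change of 0.45 (SE 0.0567, adjusted p = 0.00178, edgeR), and it passed with each of the 6 samples left out. Other cytokine-induced relatives of Socs3 had log2 fold changes of 0.08 (Socs1, adjusted p = 0.9), -0.56 (Socs2, adjusted p = 0.174) and -0.05 (Cish) by edgeR. As each sample was left out, these ran from -0.13 to 0.40 for Socs1, from -0.68 to -0.36 for Socs2 and from -0.18 to 0.09 for Cish, so the sign of Socs1 and Cish was not stable.

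**Figure D4:**
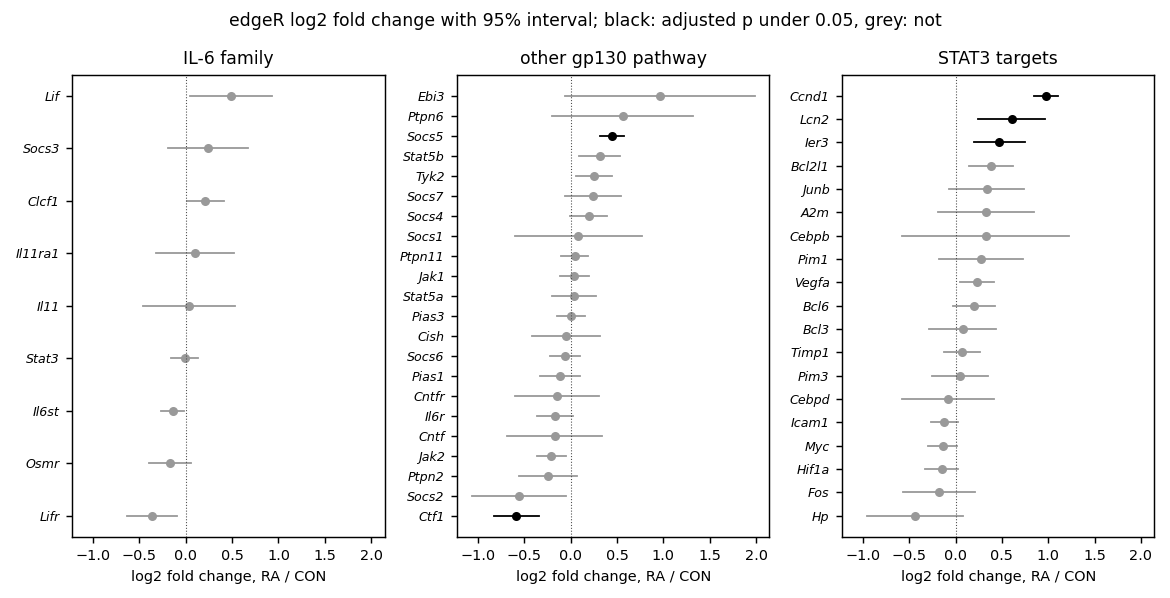
Log2 fold change (RA over CON, edgeR) with 95% interval for the tested members (left), the other gp130 pathway genes (middle) and STAT3 target genes (right); black marks an adjusted p under 0.05. None of 9 members, 2 of 22 pathway genes and 3 of 19 target genes are black.

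Genes known as STAT3 targets were read as a further readout, although other factors also drive each of them. Of 22 listed genes, 19 were in the files and tested, and 3 passed, each of them higher in RA, where 5.31% of all tested genes passed higher and 9.82% in either direction. Of the 19, 13 had a log2 fold change above 0, and their median was 0.20, against -0.0057 over all tested genes. Without CON sample 1, 9 of 19 were above 0 and the median was -0.02, although of the 6 that then passed only Cebpd was lower in RA. The number that passed ran from 1 (without RA sample 1, 2 or 3) to 6 (without CON sample 1) as each sample was left out. Over all genes the number moved the same way in these fits, from between 657 and 693 without an RA sample to 2242 without CON sample 1.

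Ccnd1 (ENSRNOG00000020918) encodes cyclin D1, which drives entry into the cell cycle. Its level was 87.6, 94.6 and 89.8 FPKM in CON and 187, 177 and 176 FPKM in RA. Ccnd1 rose by a log2 fold change of 0.98 (SE 0.0551, adjusted p = 3.77e-05, edgeR) and passed with each of the 6 samples left out (0.95 to 1.00).

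Lcn2 (ENSRNOG00000013973), which encodes the iron-carrier binding protein lipocalin-2, had a level of 8.17, 11.3 and 8.23 FPKM in CON and 13.9, 12.4 and 16.0 FPKM in RA. RA sample 2 lay close above CON sample 2. Lcn2 rose by a log2 fold change of 0.60 (SE 0.158, adjusted p = 0.0488, edgeR), and the call was lost without CON sample 3 (adjusted p = 0.1), RA sample 1 (0.133), RA sample 2 (0.0853) or RA sample 3 (0.197). The early response gene Ier3 (ENSRNOG00000000827) had a level of 33.4, 44.9 and 46.1 FPKM in CON and 57.4, 59.0 and 58.0 FPKM in RA. Ier3 rose by a log2 fold change of 0.47 (SE 0.118, adjusted p = 0.0411, edgeR), and the call was lost without CON sample 2 (adjusted p = 0.0845), RA sample 1 (0.115), RA sample 2 (0.146) or RA sample 3 (0.136).

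**Figure D5:**
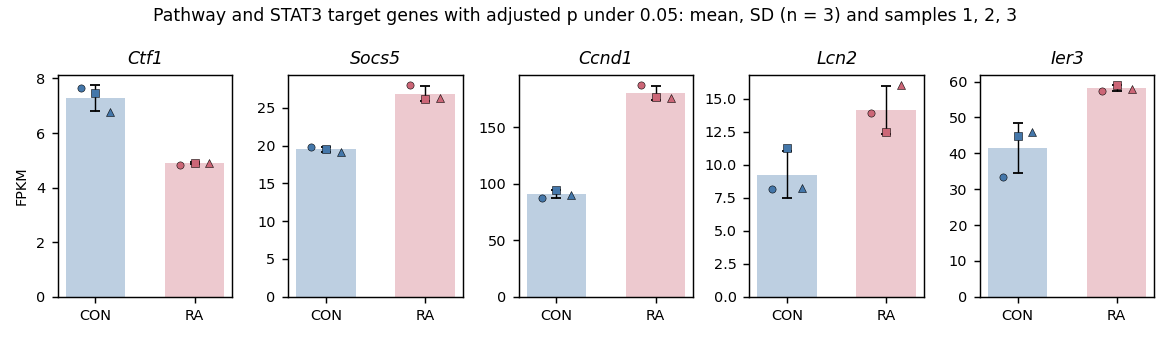
FPKM of the 2 pathway genes and 3 STAT3 target genes that passed the test, with bars for the mean, error bars for the SD (n = 3) and circle, square and triangle for samples 1, 2 and 3. Ccnd1 is about doubled in RA (log2 fold change of 0.98), and CON sample 1 is the lowest for Ccnd1, Lcn2 and Ier3.

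CON sample 1 was low for several of these targets as it was for Socs3. Its level was below 70% of the mean of the other CON samples for 2 of 9 members (Socs3 and Il11ra1) and for 5 of 19 targets (26.3%), against 10% of all tested genes. The 5 targets were Cebpb (32.1%), Cebpd (53.4%), Junb (59.7%), Pim1 (62.7%) and Bcl3 (68.7%), which encode transcription regulators and a kinase of rapid responses. Cebpd, with 22.3 FPKM in CON sample 1 and 39.6 and 43.1 FPKM in the other CON samples, had a log2 fold change of -0.08 over all samples and of -0.32 (adjusted p = 0.0142, edgeR) without CON sample 1. Lif went the other way, at 138% of the mean of the other CON samples.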

How the data were processed

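Poly(A) RNA libraries of 3 CON and 3 RA samples were compared, with groups and sample numbers taken from the labels. For each gene the authors deposited a whole-number read count without normalization, and beside it an FPKM, which scales that count by gene length and by the total counts of the sample. The submitters' processing notes name HISAT2, HTSeq 0.13.5 and the build Rnor_6.0, while strand use and the handling of shared reads are not given in the sources used here. A total of 3 counts corresponds to 0.0789 to 0.102 CPM per sample, a floor that covers counting error only.

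Counts were tested with edgeR 4.0.16 in R 4.3.3 (quasi-likelihood test, TMM, filterByExpr with a minimum count of 10, no covariates), adjusted by Benjamini-Hochberg over 13438 genes. Of these, 1319 passed (714 higher and 605 lower in RA) and 667 of them were DEGs, with a log2 fold change beyond 0.58. Standard errors came from the F statistic, and intervals of 95% from the t distribution, per gene. A total of 158 identifiers share a symbol, and of these the one of highest mean count represents the gene. The script was tested on simulated data. The members and lists were chosen with earlier results of these data known. The text names all members, the listed pathway and target genes that passed, and the 3 genes most like each of the 2 members of smallest p, among genes of mean FPKM of at least 1. A few listed pathway genes are not reported here and are left out of the pathway counts, which are therefore not those of the whole lists and may differ from them. Il6r, Cntfr, the Janus kinases, Stat5b, Ebi3 and the markers Ptprc, Cd14, Myod1, Des, Pdgfra, Dcn and Col1a1 were chosen after their values were seen. So were the retinoid response genes, Socs1, Socs2, Cish, Cebpd and the other targets low in CON sample 1.

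Alternatives were DESeq2 1.42.0, limma 3.58.1 on log2(FPKM + 0.1) and log2(FPKM + 1), relative log expression or total-count scaling, no filter, the replicate number as a block, no fold threshold and each sample left out. Promoter windows came from RefSeq GRCr8. Of 7 members with a window, only Il6 and Il11 had one whose start site lies at the annotated gene edge, and the others were not used.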

Additional observations from a re-analysis of the deposited data

How the results depend on the processing

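With 3 samples a group, the intervals given above are, per gene, the range of differences compatible with the data. A member that did not pass may therefore still differ by an amount inside its interval. The intervals of Lif, Clcf1, Il6st and Lifr excluded 0, although none of these genes passed the adjusted test with all samples. Over the alternatives for 14 single genes (the 9 tested members, Ctf1, Socs5, Ccnd1, Lcn2 and Ier3), 161 kept direction and side of the threshold, 11 lost the call, 1 gained it (Lif without CON sample 1) and 9 reversed. Those that reversed were log2 fold changes of Stat3 (0.00054 with total-count scaling, 0.00075 and 0.00073 by limma with pseudocounts of 0.1 and 1, and -0.051 to 0.020 with each sample left out), of Il11 (-0.10 to 0.18) and of Il11ra1 (-0.10 to 0.25) with each sample left out. The members that passed numbered 0 to 1, the pathway genes 1 to 3 and the STAT3 targets 1 to 6 with each sample left out. Over all genes, those that passed numbered 657 to 2242 and the DEGs 480 to 755 with each sample left out. The DEGs numbered 434 by limma on log2(FPKM + 1) and 1319 with no fold threshold. The cause of these shifts was not tested. Deviations of equally numbered samples correlated at 0.0928, -0.0123 and 0.0118, and those of unequally numbered samples at -0.122 to 0.110. So few correlations cannot decide whether equally numbered samples were paired. With the replicate block 1595 genes passed, 684 were DEGs, and 0 members and 3 pathway genes passed.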
